A study of Mus musculus with 8 samples.

Results

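Prostaglandins and lysophosphatidic acid are lipid signals that fibroblasts both make and sense. The set described here was listed by name and holds 10 genes of these pathways. They were chosen by pathway membership, with earlier results of these data known. Each gene was read from the array rows annotated with its symbol alone, and 8 of the 10 had such a row among 22180 genes tested. They were the cyclooxygenase gene Ptgs2, the terminal synthase genes Ptges and Ptgis, the prostaglandin receptor genes Ptger2, Ptger3, Ptger4 and Ptgfr, and the lysophosphatidic acid receptor gene Lpar1. Each had exactly 1 row. Ptgs1 and Enpp2 were not analysed here.

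The RNA came from lung mesenchymal cells of C57BL/6J mice aged 11 weeks that had received either PBS (control, 4 arrays) or bleomycin (4 arrays) into the trachea. All groups carried the same genotype, and cells were sorted at day 10 as negative for CD45, CD31 and EpCAM, the surface antigens of leukocytes, endothelium and epithelium. Bleomycin breaks DNA and injures the lung, and is a common means to provoke fibrosis in mice. The labels do not say whether replicates came from separate animals or from pools, so p-values measure the spread between these 4 and 4 samples, which may be technical.

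Cyclooxygenases turn arachidonic acid into prostaglandin H2, from which Ptges makes prostaglandin E2 and Ptgis makes prostacyclin. Prostaglandin E2 acts through 4 receptors. EP2 (Ptger2) and EP4 (Ptger4) couple to the stimulatory G protein and raise cyclic AMP, which in cultured lung fibroblasts restrains proliferation and the myofibroblast state, whereas EP3 (Ptger3) mainly couples to the inhibitory G protein. The FP receptor (Ptgfr) binds prostaglandin F2-alpha and raises calcium, and mice that lack it develop less fibrosis after bleomycin. Lysophosphatidic acid is made outside cells largely by autotaxin, and its receptor LPA1 (Lpar1) drives fibroblast migration.

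The promoter sequences of the 4 genes that rose and of Ptgfr, which fell most, are shown so that they can be read side by side. They are the 250 bases before the annotated start in the RefSeq promoter windows of GRCm38.p6, written 5′ to 3′ on the strand of the gene. Capitals mark matches to the C/EBP motif TTNNGNAA on either strand, the site class of a transcription factor family that acts on Ptgs2.
Ptgs2 (chr1:150099781-150100030, plus strand): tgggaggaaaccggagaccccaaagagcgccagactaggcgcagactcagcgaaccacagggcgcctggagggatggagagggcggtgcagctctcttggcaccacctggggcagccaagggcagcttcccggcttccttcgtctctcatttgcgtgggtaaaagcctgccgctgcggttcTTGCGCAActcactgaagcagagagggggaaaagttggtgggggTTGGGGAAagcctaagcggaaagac
Ptger2 (chr14:44987861-44988110, plus strand): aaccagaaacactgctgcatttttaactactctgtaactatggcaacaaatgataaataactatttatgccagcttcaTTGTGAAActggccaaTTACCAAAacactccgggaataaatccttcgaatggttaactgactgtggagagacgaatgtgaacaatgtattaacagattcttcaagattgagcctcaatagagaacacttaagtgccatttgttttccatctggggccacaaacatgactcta
Ptger4 (chr15:5244188-5244437, minus strand): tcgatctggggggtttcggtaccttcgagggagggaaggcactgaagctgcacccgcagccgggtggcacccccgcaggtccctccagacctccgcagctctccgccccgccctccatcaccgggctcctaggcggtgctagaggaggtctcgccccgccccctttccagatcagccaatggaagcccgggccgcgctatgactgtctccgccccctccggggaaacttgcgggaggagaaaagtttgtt
Ptger3 (chr3:157566626-157566875, plus strand): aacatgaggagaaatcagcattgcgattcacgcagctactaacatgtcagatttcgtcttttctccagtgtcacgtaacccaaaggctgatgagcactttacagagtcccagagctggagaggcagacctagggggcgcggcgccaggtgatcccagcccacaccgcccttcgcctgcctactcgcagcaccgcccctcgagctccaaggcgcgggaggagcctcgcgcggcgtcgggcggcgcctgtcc
Ptgfr (chr3:151837529-151837778, minus strand): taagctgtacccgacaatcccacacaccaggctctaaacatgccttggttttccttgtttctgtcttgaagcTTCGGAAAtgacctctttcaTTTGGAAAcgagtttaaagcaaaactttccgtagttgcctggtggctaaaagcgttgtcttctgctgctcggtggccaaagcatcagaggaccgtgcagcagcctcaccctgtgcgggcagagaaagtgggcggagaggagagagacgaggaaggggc

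Of the 10 listed genes, 8 had a window in that table, and Ptgis and Enpp2 had none. The Ptgs2 window matched the C/EBP motif at bases 69 to 62 before the start, where the match reads the same way on both strands, and at bases 25 to 18. Ptger2 and Ptgfr also held 2 matches each, and Ptger3 and Ptger4 held none. The window of Ptges, which is not shown, held a match at bases 198 to 191. The motif occurs in 36.9% of all 32851 windows of this length, so a match is common. None of the 10 windows of the listed genes held the other motifs searched on either strand. Bases after the annotated start or further upstream were not searched, so motifs there would be missed. These were the short CRE TGACG (in 17.8% of all windows), the full CRE TGACGTCA (1.55%), the E box CACGTG (6.02%), the TATA box TATAAA (12.4%), the AP-1 motif TGANTCA (6.75%) and an NF-kB motif (4.11%). The full CRE contains the short one. The windows of Ptger3 and Ptger4 were rich in GC, at 62.0% and 66.8% with 21 and 19 CG pairs, and that of Ptger2 was poor, at 38.0% with 3, where the median of all windows was 52.4% with 6.

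In the bleomycin samples Ptgs2 and the receptor genes Ptger2, Ptger3 and Ptger4 rose, while Ptgis and Ptgfr fell. Of the 8 genes 4 were higher and 2 lower past the threshold, where 9.12% of all tested genes were higher and 8.24% lower (limma, Benjamini-Hochberg adjusted over all 22180 genes, adjusted p under 0.05; 17.4% in either direction). Over all genes 2022 were higher and 1828 lower, and with median centring 1623 were higher and 2314 lower, while the same count of members, 4 higher and 2 lower, passed. The ranges of the 4 control and 4 bleomycin arrays did not overlap in 7 of the 8 genes, against 23.5% of all genes. Some mesenchymal genes were bright in the controls, with means of 12.85 for Dcn, 11.94 for Col1a1 and 10.21 for Pdgfrb. The marker lists that hold them averaged less on control arrays. The ranges were 8.63 to 9.18 (adventitial fibroblast), 7.75 to 8.02 (fibrotic fibroblast state) and 7.27 to 7.54 (pericyte). Alveolar fibroblast markers averaged 10.45 to 10.75 and alveolar epithelial markers 8.27 to 9.14. The median log2 difference of the 8 genes was 0.38, and that of all genes was 0.03. The counts of members were also 4 and 2 when control replicates 1 and 2, the controls with the most epithelial and endothelial signal, were left out. Levels below are log2 intensities as deposited, in the order of replicates 1 to 4, and differences are bleomycin minus control on the log2 scale ± SE unless another error is named. The 8 genes lay between 6.58 and 10.74 on every array, above the array medians of the rows that have no gene annotation (4.195 to 4.52). They also lay above the array medians of all tested genes (5.47 to 5.54), so the shares of all genes given here include many dimmer genes.

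**Figure D1:**
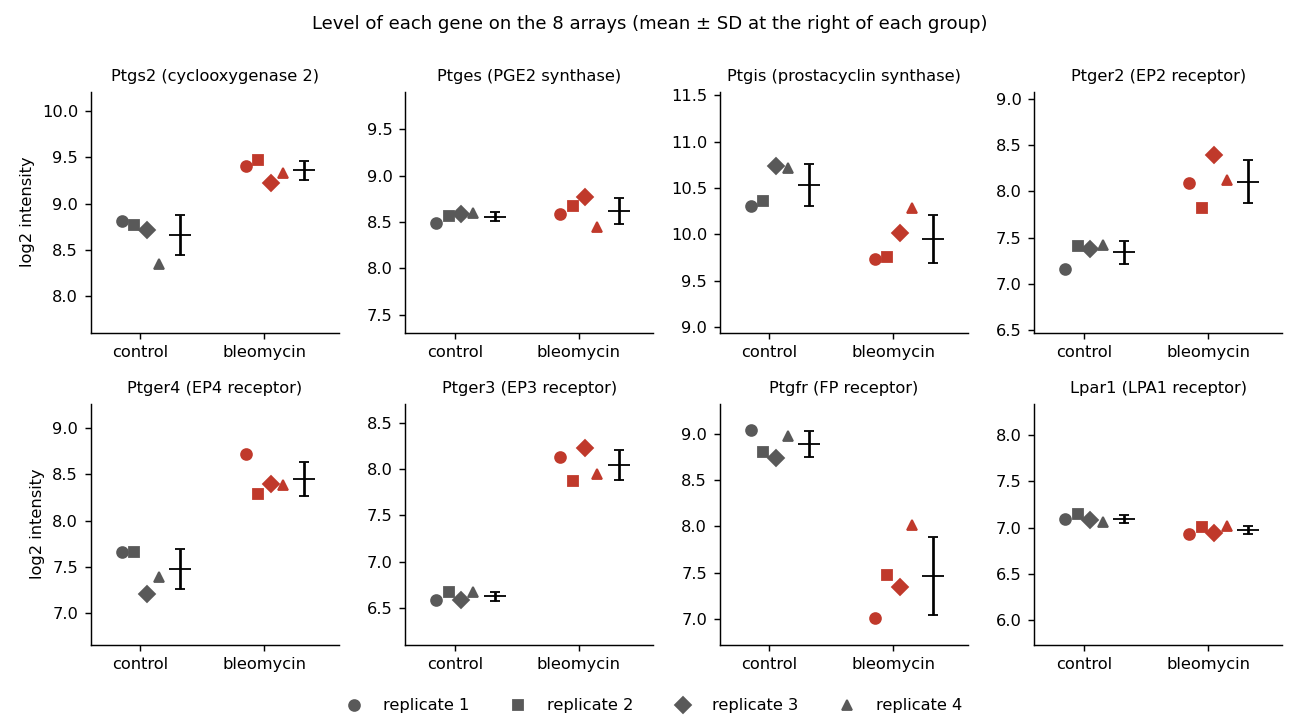
Level of each gene on the 8 arrays. The vertical axis is log2 intensity and spans the same width in every panel. Grey marks are the 4 control arrays, red marks the 4 bleomycin arrays, the shape gives the replicate number, and the black bar is the group mean ± SD. Ptger3 shows the widest gap, from at most 6.67 in control to at least 7.87 in bleomycin arrays, and only Ptges overlaps.

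The inducible cyclooxygenase rose. Ptgs2 stood at 8.82, 8.77, 8.72 and 8.35 on the control arrays and at 9.41, 9.47, 9.23 and 9.33 on the bleomycin arrays. Every bleomycin array was above every control array, and control replicate 4 was the lowest of all. The difference was 0.70 ± 0.12, or 1.62-fold (limma adjusted p = 0.00267). It was 0.64 in replicates 1 and 2 and 0.75 in replicates 3 and 4. The latter pair alone did not pass, with 2 arrays a group (limma adjusted p = 0.0718).

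The prostaglandin E2 synthase that uses its product did not pass the test. Ptges, the inducible form, stood at 8.49, 8.56, 8.58 and 8.60 in control and at 8.58, 8.67, 8.77 and 8.44 in bleomycin arrays. The groups overlapped, and the lowest value of all was bleomycin replicate 4. The difference of 0.06 ± 0.09 did not pass (limma adjusted p = 0.727), and its 95% interval ran from -0.15 to 0.26.

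Prostacyclin synthase fell. Ptgis stood at 10.31, 10.36, 10.74 and 10.72 in control and at 9.74, 9.76, 10.02 and 10.28 in bleomycin arrays. In each group replicates 1 and 2 were lower than replicates 3 and 4, and the groups were separated only by the gap between bleomycin replicate 4 and control replicate 1. The difference was -0.58 ± 0.15, 1.497-fold lower (limma adjusted p = 0.0226), and it was -0.59 in replicates 1 and 2 and -0.58 in replicates 3 and 4. The call was lost when control replicate 3, control replicate 4, bleomycin replicate 1 or bleomycin replicate 2 was left out, with differences between -0.52 and -0.51 (limma adjusted p of 0.0589 to 0.066). Replicates 3 and 4 alone did not pass either (limma adjusted p = 0.0853).

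Whether Ptges and Ptgis changed unequally was asked within arrays. The change of Ptges exceeded that of Ptgis by 0.64 on the log2 scale, with an SD within groups of 0.28. The groups overlapped and the difference did not pass an exact two-sided permutation test over the 4 and 4 arrays (p = 0.0857, adjusted p = 0.171 over the 2 pairs tested; the smallest p such a test can give is 0.0286).

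The 3 prostaglandin E2 receptor genes measured rose, and of all 8 genes Ptger3 changed with the smallest adjusted p. Ptger3, the gene of EP3, stood at 6.59, 6.67, 6.58 and 6.67 in control and at 8.13, 7.87, 8.23 and 7.94 in bleomycin arrays. The control arrays lay within 0.1 of each other, and every bleomycin array was far above them. The difference was 1.42 ± 0.10, or 2.67-fold (limma adjusted p = 2.18e-05), and 204 of the 22180 genes rose more. Its call held in all 22 alternatives, which are other fits and a stricter threshold. They include the fits of replicates 1 and 2 (1.37) and of replicates 3 and 4 alone (1.46).

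Ptger4, the gene of EP4, stood at 7.66, 7.66, 7.21 and 7.39 in control and at 8.72, 8.29, 8.40 and 8.39 in bleomycin arrays. The groups did not overlap, and bleomycin replicate 1 was the highest. The difference was 0.97 ± 0.13, or 1.96-fold (limma adjusted p = 0.000788). Its call held in the same 22 alternatives. Markers of leukocytes, which also express EP4, moved in part with it. Of 12 such markers 7 rose and none fell (4 to 7 rose and up to 2 fell with 1 array left out), but the log2 summed level of the list ran from 10.97 to 11.66 in control and from 11.04 to 11.53 in bleomycin arrays, and the gate gene Ptprc differed by -0.48 (limma adjusted p = 0.0529). Their part in the rise of Ptger4 was not tested.

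Ptger2, the gene of EP2, stood at 7.16, 7.41, 7.38 and 7.42 in control and at 8.09, 7.82, 8.39 and 8.12 in bleomycin arrays. The groups did not overlap, and control replicate 1 lay apart below the other controls. The difference was 0.76 ± 0.12, or 1.69-fold (limma adjusted p = 0.00222), and replicates 1 and 2 alone gave 0.67 and did not pass (limma adjusted p = 0.0663). Ptger2 and Ptger4, the pair that raises cyclic AMP, were not shown to change unequally. The change of Ptger2 minus that of Ptger4 was -0.21, with an SD within groups of 0.28 and overlapping groups (exact two-sided permutation p = 0.314, adjusted p = 0.314 over the same 2 pairs).

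**Figure D2:**
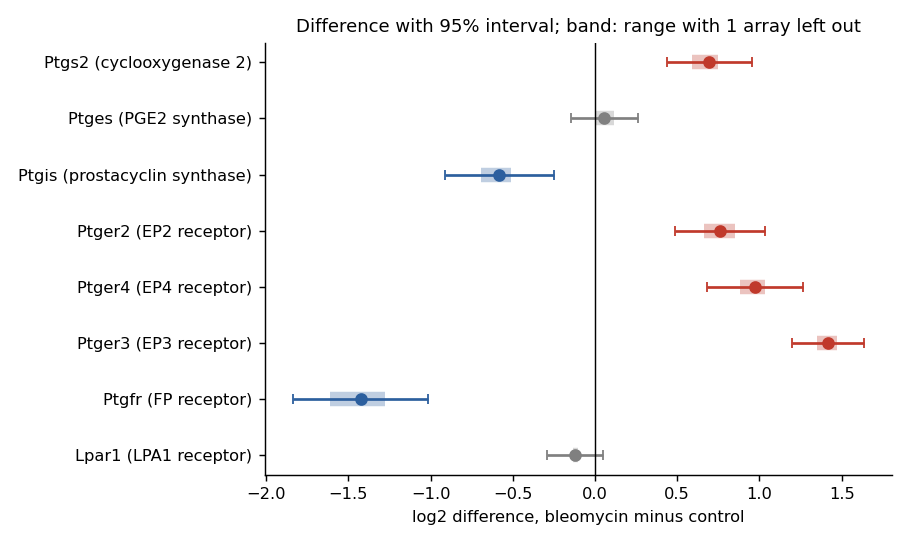
Log2 difference of each gene, bleomycin minus control, with its 95% interval from limma (points and bars) and the range of the difference when 1 of the 8 arrays is left out (pale bands). Red marks genes that rose, blue genes that fell and grey genes that did not pass. The intervals of Ptges (-0.15 to 0.26) and Lpar1 (-0.29 to 0.05) include 0.

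The prostaglandin F receptor fell. Ptgfr stood at 9.04, 8.80, 8.74 and 8.97 in control and at 7.01, 7.47, 7.35 and 8.02 in bleomycin arrays. All bleomycin arrays were below all controls, and bleomycin replicate 4 was the nearest to them. The difference was -1.43 ± 0.18, 2.69-fold lower (limma adjusted p = 0.000605), and 100 of the 22180 genes fell more. It was -1.68 in replicates 1 and 2 and -1.17 in replicates 3 and 4, and the latter pair alone did not pass (limma adjusted p = 0.0648). Without bleomycin replicate 4 the difference was -1.61.

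Markers of the alveolar fibroblast, a main cell type of this gate, moved the same way as Ptgfr and Ptgis. Of 10 such markers 9 fell and none rose, with a median of -0.69, and the log2 summed level of the list ran from 14.60 to 14.71 in control and from 13.62 to 14.25 in bleomycin arrays. In sorted bulk samples, fewer cells of a type and less RNA per cell cannot be told apart. Markers of the fibrotic fibroblast state moved the other way, with 10 of 10 higher and a median of 2.57. Of 8 smooth muscle markers 6 rose and 1 fell, with a median of 0.68, and of 7 peribronchial fibroblast markers 4 rose and none fell, with a median of 0.46. The log2 summed level of the smooth muscle list ran from 10.72 to 10.84 in control and from 11.26 to 11.84 in bleomycin arrays, and that of the peribronchial list from 12.10 to 12.31 and from 12.59 to 12.83. The part of any of these 4 lists in the changes of the 8 genes was not tested.

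Lpar1 was measured with little spread. It stood at 7.09, 7.15, 7.08 and 7.06 in control and at 6.93, 7.01, 6.94 and 7.02 in bleomycin arrays. Every bleomycin array was below every control array, by a small margin. The difference of -0.12 ± 0.08 did not pass (limma adjusted p = 0.329). Its 95% interval ran from -0.29 to 0.05, so a rise above 0.05 or a fall beyond 0.29 on the log2 scale lies outside it.

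Around these genes 12 lists of the wider pathway were read, with 161 of 176 genes measured. The lists, too, were chosen with earlier results of these data known. Of the 161 genes 19 rose and 34 fell, which is 32.9%, against 17.4% of all tested genes. The tested genes include many dim ones, and with the dimmest 50% left out more genes passed (4127 against 3850, limma). The share among the brighter 50% of genes is thus above 17.4% and also above 32.9%. In that fit 55 list genes passed, with fewer list genes tested. The lists were not compared with genes of like brightness. Without control replicates 1 and 2 the lists held 10 rises and 21 falls. The immediate early genes alone gave 15 of the falls.

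**Figure D3:**
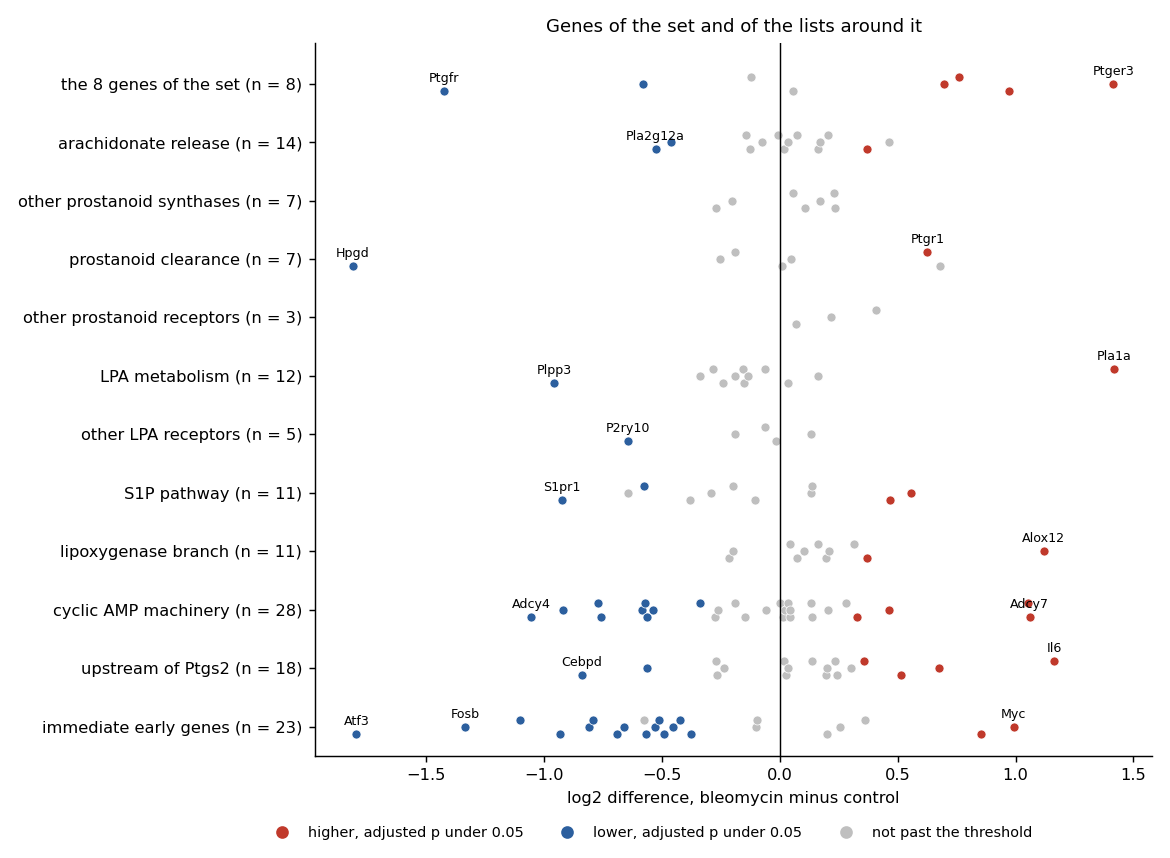
Log2 difference of every measured gene of the set and of 11 of the 12 lists around it, bleomycin minus control, 1 point a gene. Red points rose and blue points fell past an adjusted p of 0.05 (limma), and grey points did not pass. The most displaced points are Hpgd (-1.81) and Atf3 (-1.80) on the left and Pla1a and Ptger3 (1.42 each) on the right.

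Of 14 phospholipase and lipase genes whose products release arachidonic acid 1 rose and 2 fell, a share near that of all genes, with a median of 0.03 that turned to -0.01 with quantile normalization and -0.02 with median centring. With 1 array left out the list held 0 to 2 rises and 1 to 2 falls. Pla2g4a, the cytosolic phospholipase that feeds cyclooxygenase, differed by 0.20 ± 0.11 and did not pass (limma adjusted p = 0.266). The calcium-independent phospholipase gene Pla2g6 rose by 0.37 ± 0.10, the secreted phospholipase gene Pla2g12a fell by 0.53 ± 0.10 and the diacylglycerol lipase gene Daglb fell by 0.46 ± 0.11. The call of Pla2g6 was lost without control replicate 1, 2 or 3 or bleomycin replicate 1 or 3 (differences of 0.32 to 0.38, limma adjusted p up to 0.0789). That of Daglb was lost without control replicate 1 or bleomycin replicate 1 (differences of -0.43, limma adjusted p up to 0.0526).

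None of 7 other prostanoid synthases passed by limma, with a median of 0.10 that was -0.20 over those left without the dimmest 50% of genes. At an unadjusted p under 0.05 there were 2, Tbxas1 and Cbr1. The 2 brightest by rows of their own were the carbonyl reductase gene Cbr1 at -0.27 ± 0.12 and Ptges2, a second prostaglandin E2 synthase, at 0.23 ± 0.12 (limma adjusted p of 0.164 and 0.219). Rows shared by Ptges3 and Ptges3-ps, left out of the main fit, stood at 10.15 and 7.63 in control arrays. They differed by -0.10 and -0.03. A dimmer row of Cbr1 differed by -0.17. Hpgds and Tbxas1, the synthases of prostaglandin D2 and thromboxane in leukocytes and platelets, had control levels of 3.85 and 4.84.

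Among 7 genes of prostanoid transport and breakdown the main degrading enzyme fell. Hpgd, the 15-hydroxyprostaglandin dehydrogenase that inactivates prostaglandin E2, stood at 10.30, 10.42, 9.33 and 9.31 in control and at 7.81, 8.38, 7.53 and 8.39 in bleomycin arrays. The groups did not overlap, but control replicates 1 and 2 lay above control replicates 3 and 4. The difference was -1.81 ± 0.29, 3.51-fold lower (limma adjusted p = 0.0021), and 32 of the 22180 genes fell more. It was -2.27 in replicates 1 and 2, -1.36 in replicates 3 and 4, where it did not pass (limma adjusted p = 0.0666), and -1.29 without control replicates 1 and 2 (limma adjusted p = 0.0152).

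Markers of alveolar epithelium and blood endothelium, which also express Hpgd, stood apart on the same control arrays. The log2 summed level of 12 alveolar epithelial markers averaged 14.00 on control replicates 1 and 2 and 13.06 on control replicates 3 and 4, and ran from 10.91 to 12.12 on bleomycin arrays. That of 11 endothelial markers averaged 13.01 and 12.02 on these pairs and ran from 10.94 to 11.55 on bleomycin arrays. Of these markers 11 of 12 and 9 of 11 fell, and no marker rose. The gate gene Epcam itself was dim, at 4.99 in control and 4.43 in bleomycin arrays, and Pecam1, which encodes CD31, went from 9.87 to 8.56. Their part in the fall of Hpgd was not tested.

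Of the other clearance genes, the prostaglandin reductase gene Ptgr1 rose by 0.63 ± 0.13 (limma adjusted p = 0.00751), while the prostaglandin transporter gene Slco2a1 differed by 0.68 ± 0.28 and did not pass (limma adjusted p = 0.123). The median of the 7 lay near 0 (0.0074) and changed sign between settings, being -0.04 with median centring. None of the 3 other prostanoid receptors measured passed by limma, and at an unadjusted p under 0.05 there was 1, Ptgir. Ptgir, the prostacyclin receptor gene, stood at 6.25, 6.34, 6.52 and 6.45 in control and at 6.58, 6.58, 7.35 and 6.68 in bleomycin arrays. The groups did not overlap, but the difference of 0.41 ± 0.17 did not pass (limma adjusted p = 0.125), and bleomycin replicate 3 stood far above the other bleomycin arrays. The thromboxane receptor gene Tbxa2r differed by 0.07 ± 0.09.

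Of 12 enzyme genes listed on the lysophosphatidic acid side 1 rose and 1 fell, with a median of -0.16. That share of 16.7% is near the 17.4% of all genes. Pla1a, a secreted phospholipase A1 that acts on phosphatidylserine, stood at 6.73, 6.79, 6.70 and 6.48 in control and at 8.14, 7.97, 8.52 and 7.76 in bleomycin arrays. All bleomycin arrays were above all controls, and the difference was 1.42 ± 0.15, or 2.67-fold (limma adjusted p = 0.000228). Whether the product of this enzyme feeds lysophosphatidic acid here was not measured. Plpp3, a membrane phosphatase that breaks down lysophosphatidic acid outside cells, stood at 12.47, 12.36, 12.54 and 12.52 in control and at 11.26, 11.58, 11.44 and 11.77 in bleomycin arrays. All bleomycin arrays were below all controls, and the difference was -0.96 ± 0.11, 1.94-fold lower (limma adjusted p = 0.000404). The calls of both genes held in all 22 alternatives.

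Of 5 other receptors of this lipid or orphan relatives measured, 1 fell, a share near that of all genes. It was P2ry10, a lymphocyte receptor gene, at -0.65 ± 0.20 (limma adjusted p = 0.0457). Its row was dim, with 4.04 and 4.14 on bleomycin replicates 1 and 2, below the medians of unannotated rows on those arrays (4.195 and 4.26), and 4.31 and 4.42 on bleomycin replicates 3 and 4, just above theirs, so the size of the difference is uncertain. It differed by -1.17 in replicates 1 and 2 and -0.12 in replicates 3 and 4, and the call was lost without any of control replicates 1 and 2 or bleomycin replicates 1, 2 and 3 (differences of -0.67 to -0.51, limma adjusted p up to 0.116). Lpar2, Lpar3 and Lpar4 differed by -0.06, -0.19 and -0.02 and did not pass (limma adjusted p of 0.723, 0.333 and 0.925).

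The sister system of sphingosine 1-phosphate had 2 genes higher and 2 lower of 11, or 36.4%, against 17.4% of all tested genes. Sphk1, the kinase that makes this lipid, rose by 0.56 ± 0.15, and Sgpl1, the lyase that ends it, rose by 0.47 ± 0.10. The receptor genes S1pr1, typical of endothelium, and S1pr4, typical of lymphocytes, fell by 0.93 ± 0.28 and 0.58 ± 0.14. In replicates 3 and 4 these 2 receptors differed by -0.42 and -0.28, and without control replicates 1 and 2, whose endothelial markers stood above the other controls, by -0.33 and -0.37, and neither passed there (limma adjusted p of 0.146 and 0.296, and of 0.158 and 0.155). Leaving out 1 array ended the call of S1pr1 for control replicates 1 and 2 and each bleomycin replicate (differences of -0.99 to -0.72, limma adjusted p up to 0.108). It ended that of S1pr4 for control replicate 1 or bleomycin replicate 1 (-0.52 to -0.49, limma adjusted p up to 0.0535), and that of Sphk1 for control replicate 1, 3 or 4 or bleomycin replicate 3 (0.50 to 0.58, limma adjusted p up to 0.084). With 1 array left out the list held 1 to 2 rises and 0 to 3 falls, and without control replicates 1 and 2 it held none (limma).

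In the lipoxygenase branch, the other use of arachidonic acid, 2 of 11 genes rose and none fell, with a median of 0.16. That share of 18.2% is near the 17.4% of all genes. The platelet-type 12-lipoxygenase gene Alox12 stood at 5.56, 5.48, 5.42 and 5.55 in control and at 6.83, 6.65, 6.76 and 6.25 in bleomycin arrays. The groups did not overlap, and the difference was 1.12 ± 0.13, or 2.17-fold (limma adjusted p = 0.000282). The lipoxygenase gene Alox8 rose by 0.37 ± 0.09 from a control level of 4.35, which lay below the medians of unannotated rows on the control arrays (4.44 to 4.52). Of 8 measured platelet and mast cell markers none rose and 1 fell. They were dim, with a list mean of 4.16 to 4.35 on control and 3.96 to 4.25 on bleomycin arrays. These means lie near or below the medians of unannotated rows, so a change could be missed. Gp1bb, a further listed marker, had only a row shared with another gene, which differed by 0.51. The part of such cells in the rise of Alox12 was not tested.

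Downstream of EP2 and EP4, the cyclic AMP machinery moved in both directions, with 4 of 28 genes higher and 9 lower. That share is 46.4%, against 17.4% of all tested genes. The median was -0.03, which was 0.02 without the dimmest 50% of genes. The adenylyl cyclase gene Adcy7 rose by 1.06 ± 0.14 and the protein kinase A regulatory subunit gene Prkar2b by 1.05 ± 0.18 (limma adjusted p of 0.000728 and 0.00337). Pde4b, a phosphodiesterase gene that cyclic AMP itself induces, fell by 0.77 ± 0.09 (limma adjusted p = 0.000281). The cyclase genes Adcy4 and Adcy8 fell by 1.06 ± 0.23 and 0.92 ± 0.20 (limma adjusted p of 0.0103 and 0.0107). Both were higher on control replicates 1 and 2 than on control replicates 3 and 4, as the endothelial markers were, and differed by -0.61 and -0.58 without control replicates 1 and 2, where the call of Adcy8 was lost (limma adjusted p of 0.0456 and 0.0703). There the list held 3 genes higher and 4 lower.

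Among 18 cytokine, receptor and transcription factor genes known to act upstream of Ptgs2, 4 rose and 2 fell, with a median of 0.17. They make up 33.3%, against 17.4% of all tested genes, and 1 rose and 2 fell without control replicates 1 and 2. Il6 stood at 7.99, 8.08, 7.85 and 7.21 in control and at 8.90, 9.05, 8.83 and 9.01 in bleomycin arrays. As for Ptgs2, control replicate 4 was the lowest and bleomycin replicate 2 the highest. The difference was 1.16 ± 0.17, or 2.24-fold (limma adjusted p = 0.00124). Il1rn, the interleukin-1 receptor antagonist gene, rose by 0.68 ± 0.15 and Nfkb2 by 0.51 ± 0.11. The interleukin-1 receptor gene Il1r1 rose by 0.36 ± 0.08 (limma adjusted p = 0.0111). The C/EBP factor gene Cebpd fell by 0.84 ± 0.12 and Nfkbiz, an inducible NF-kB cofactor gene, by 0.56 ± 0.13, whose groups met at 9.0, while Cebpb differed by -0.24 and Il1b by 0.14 without passing (limma adjusted p of 0.172 and 0.442).

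Ptgs2 is itself an immediate early gene, a class that responds within minutes to many stimuli and also to tissue dissociation. Most of that class went the other way from Ptgs2. Of 23 measured immediate early genes 15 fell and 2 rose, with a median of -0.51. Together they are 73.9% of the list, against 17.4% of all tested genes. Atf3 fell by 1.80 ± 0.21, Fosb by 1.33 ± 0.15 and Klf4 by 1.10 ± 0.14, and the groups did not overlap in any of these (limma adjusted p of 0.00037, 0.000261 and 0.000487). Myc and Egr3 rose by 0.99 ± 0.21 and 0.86 ± 0.23. The call of Egr3 was lost without control replicate 1, 2 or 4 (differences of 0.80 to 0.86, limma adjusted p up to 0.0678), and bleomycin replicate 2 stood apart at 8.35. Without control replicates 1 and 2 the list held 11 falls and 2 rises. The list averaged 10.42 to 10.46 on control and 9.86 to 10.17 on bleomycin arrays. The part of dissociation in the changes of Ptgs2 or of these genes was not tested.

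**Figure D4:**
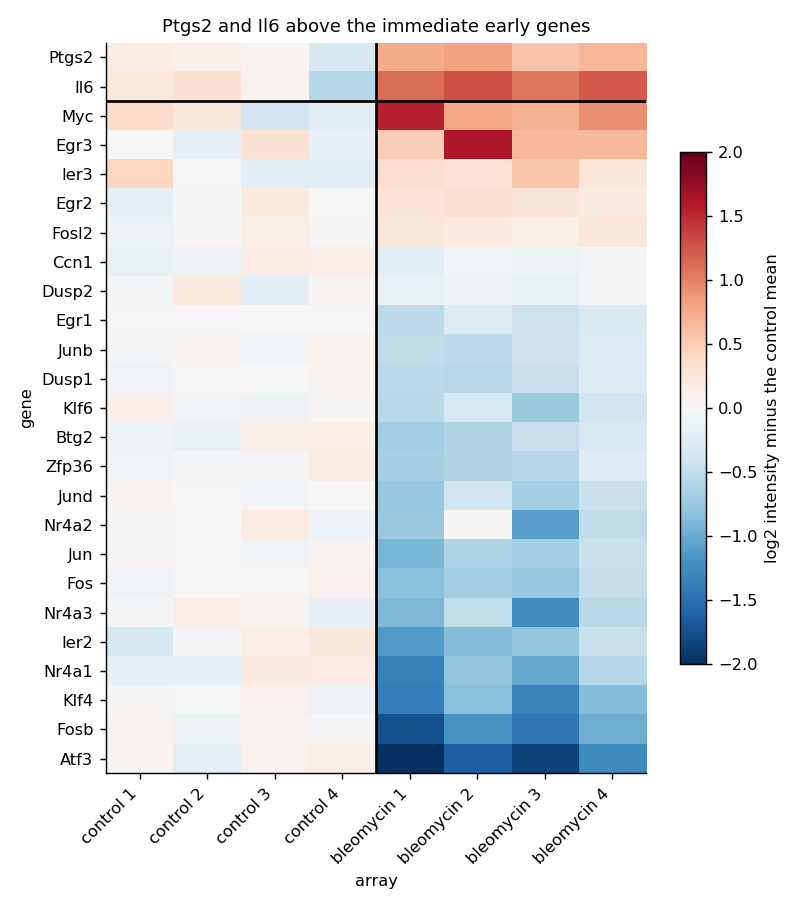
Level of Ptgs2, Il6 and 23 immediate early genes on each of the 8 arrays, as log2 intensity minus the mean of the 4 control arrays of that gene (colour). Columns are arrays, rows are genes ordered by their difference, and the black lines set off Ptgs2 and Il6 and part the groups. Ptgs2 and Il6 are above their control mean on the 4 bleomycin arrays, and Atf3, Fosb and Klf4 are below theirs.

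For each gene that passed, the gene with the most similar levels over the 8 arrays among all tested genes was found by Pearson correlation. It was Il6 for Ptgs2 (r = 0.990), Irf7 for Ptger3 (r = 0.996), the Fc receptor gene Fcgr2b for Ptger4 (r = 0.995), the replication factor gene Rfc3 for Ptger2 (r = 0.994), Jun for Ptgfr (r = 0.994) and Anks1 for Ptgis (r = 0.997). Irf7, an interferon response regulator, rose by 1.26 ± 0.10, and Jun, an immediate early transcription factor gene, fell by 0.66 ± 0.11 (limma adjusted p of 4.95e-05 and 0.002). The 8 arrays fall into 2 groups that share the treatment difference, so many genes come close. The hundredth gene still had r between 0.94 and 0.98.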

How the data were processed

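Lung mesenchymal RNA from 8 samples was measured on 1-colour arrays, 4 control and 4 bleomycin, from biotin-labelled cRNA of 100 ng total RNA, per the labels' protocols. The deposited values are 1 number per row and array, read as log2 intensities because they run from 0.24 to 13.58. How the authors corrected background and normalized was not given in the sources used here. Arrays give no read depth, and their number limits the precision. Detection calls were not used.

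Of 41345 rows, 23521 were annotated with 1 gene, 1814 with several and 16010 with none. Only the first kind was tested in the main fit, with the row of the highest mean for each of 22180 genes. Array medians over these genes differed by 0.071, so values were used as deposited. Groups were compared with limma 3.58.1 in R 4.3.3, two-sided, adjusted over all tested genes. Member pairs were compared by exact permutation in SciPy 1.17.1, and of the 4 pairs planned 2 were tested. The fit was tested on simulated data. Promoter sequences are RefSeq's (GRCm38.p6).

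The members, lists and alternatives were chosen with earlier results of these data known. Named genes are the members, the passing genes of each list that changed most (up to 3 in the commoner direction and 2 in the other, all where 5 or fewer passed, the 2 brightest where none did) and the gene most like each passing member. Pla2g4a, Slco2a1, Hpgds, Tbxas1, Ptges3, Lpar2, Lpar3, Lpar4, Cebpb, Il1b and Il1r1 were named after their values were seen. Dcn, Col1a1, Pdgfrb, Ptprc, Epcam, Pecam1 and Gp1bb are genes of the cell type marker lists and were also named outside this rule. The genes of 1 of the 12 lists are counted in the totals over the lists and are not reported here.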

Additional observations from a re-analysis of the deposited data

Results flagged for a closer look

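In 4 groups of 4 arrays, 1 array stood far from the other 3 by a gap that was large against the group's range (above Dixon's 95% critical value). Over 88 such groups looked at, chance flags about 1 in 20. Ptger2 was at 7.16 on control replicate 1, against 7.38 to 7.42 on the other controls, so this array lies on the far side from the bleomycin arrays. Ptgir was at 7.35 on bleomycin replicate 3, against 6.58 to 6.68 on the other bleomycin arrays. Adcy7 was at 9.0 on bleomycin replicate 3, against 8.54 to 8.61. Egr3 was at 8.35 on bleomycin replicate 2, against 7.22 to 7.38. The cause was not tested.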

How the results depend on the processing

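The 8 members kept their direction in all 22 alternatives, which are other fits and a stricter threshold. Of the 6 members that passed, Ptger3 and Ptger4 kept their calls in all of these. Ptgs2, Ptger2 and Ptgfr lost theirs in 1 alternative each and Ptgis in 6. With 1 array left out, 5 to 6 members passed, and Ptgis was the only member to lose its call. The counts over all genes ran from 2828 to 3870 and over the pathway lists from 45 to 54 with 1 array left out. Replicates 3 and 4 alone gave 3 members, 723 genes and 9 list genes, with 2 arrays a group. Replicates 1 and 2 alone gave 1671 genes and 28 list genes, and 5 members. Without control replicates 1 and 2 there were 2197 genes and 31 list genes, and 6 members. At an adjusted p under 0.01 there were 1958 genes and 32 list genes, and 5 members. Median centring gave 1623 higher and 2314 lower genes, against 2022 and 1828 as deposited, and kept the 6 calls of members. The change of Ptges minus that of Ptgis ran from 0.56 to 0.81 and that of Ptger2 minus that of Ptger4 from -0.34 to -0.11 with 1 array left out. With the replicate number as a block, 3775 genes, 6 members and 51 list genes passed, and of the named genes Pla2g6 and P2ry10 lost their calls. Same-numbered arrays deviated together with correlations of only 0.06 to 0.13. Not every array correlated best with its own number, and the pairing was not used. The deviations did fall into 2 sets of arrays. Between control and bleomycin, arrays numbered 1 or 2 correlated positively with each other (0.06 to 0.13). So did those numbered 3 or 4 (0.06 to 0.11). Correlations across the 2 sets were all negative (-0.14 to -0.07). The main fit ignored these sets. A fit that let their levels differ gave 4461 genes, 6 members and 56 list genes. The dimmest rows cannot be told from background.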
